A study of Mus musculus with 32 samples.

Results

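Late 2-cell mouse embryos of the B6 strain, carrying no Dppa2 or Dppa4 mutation and collected 28 hours after fertilization, were profiled with 2 kinds of RNA-seq library. The polyA set holds 2 libraries labelled WT, each made from a single embryo, and the total RNA set holds 2 libraries labelled m+z+Dppa4; descriptions of both sets mark them as controls for Dppa4. These 4 libraries are 4 of the 32 in the series, which compares unmutated embryos with embryos lacking Dppa2 or Dppa4 at the 1-cell and 2-cell stages. They were chosen by their labels, and the same 46078 gene identifiers were matched across both tables. The polyA cDNA was made with the SMARTer Ultra Low Input kit and carries no strand information, whereas the total RNA libraries are reverse-stranded and came from the SMARTer-Seq Stranded kit. How many embryos went into a total RNA library is not given in the sources used here, nor whether libraries of a kind came from separate animals, so the spread between replicates may be partly technical.

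A polyA library is primed on the adenosine tail that most messenger RNAs receive after cleavage at a polyadenylation signal, so RNAs without a tail are largely invisible to it. Total RNA libraries also read RNAs that end differently: histone messengers of dividing cells, which end in a stem-loop, the spliceosomal and nucleolar small RNAs, and the RNAs of the signal recognition particle, RNase P and 7SK. The oocyte and early embryo are a special case, because stored maternal messengers shorten and lengthen their tails without being made or destroyed, while transcription from the embryo's own genome begins. A polyA library of such a cell therefore reads both how much of an RNA is present and whether it has a tail.

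The ends of histone messengers are shown first, because they differ from those of other messengers and the class stood far apart between the libraries. Below are 30-base windows from the annotated ends of 6 replication-dependent histone transcripts (GENCODE M21 transcripts, mm10, read on the transcribed strand), with the stem-loop letters in capitals.

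Hist2h2aa1: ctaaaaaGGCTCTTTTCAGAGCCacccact

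Hist2h2aa2: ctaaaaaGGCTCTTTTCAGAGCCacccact

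Hist1h2bj: atccaaaGGCTCTTTTCAGAGCCacgcaca

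Hist1h2bk: caccaaaGGCTCTTTTAAGAGCCactaaac

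Hist2h2ac: ccaaaaaGGCTCTTTTTAGAGCCaccaaat

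Hist1h2ao: aaaaaaaGGCTCTTTTCAGAGCCatccaca

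They lie at chr3:96246025-96246054 (+ strand), chr3:96239777-96239806 (- strand), chr13:22043631-22043660 (+), chr13:22036293-22036322 (+), chr3:96220411-96220440 (-) and chr13:21810891-21810920 (+). A stem-loop pattern of 16 letters was searched on the transcribed strand in the last 120 bases of 21519 protein-coding transcripts. It was found in 21 of them (0.0976%), and all 21 belong to the 65 replication-dependent histone genes in the tables. The commonest form, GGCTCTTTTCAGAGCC, stood in 11 genes, and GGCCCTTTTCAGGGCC in 4. The other 44 annotated histone transcripts held no match in this window. Their messengers may still have a stem-loop, since an annotated transcript can end elsewhere than the messenger.

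Replacement histones and most other messengers end instead at a polyadenylation signal. The 26-base windows below come from the last 40 bases of the transcripts of 2 replacement histones and of 2 genes that were much higher in the polyA libraries, with the signal in capitals.

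H2afz: ctgcttactaATTAAAcagtgcatct

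H2afv: aatgcacagaAATAAAgaaactagca

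Fam221b: caagatcagcAATAAAgtggaaacca

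Esp24: aatgtataatAATAAAagtttactta

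These windows lie at chr3:137866887-137866912 (+), chr11:6427242-6427267 (-), chr4:43659622-43659647 (-) and chr17:39040194-39040219 (+). AATAAA or ATTAAA, searched on the transcribed strand in the last 40 bases, was present in 15179 of the 21519 protein-coding transcripts (70.5%) and in 17 of the 65 histone transcripts.

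Some small nucleolar RNAs were high in total RNA and near 0 in polyA RNA. Shown whole are Gm22988, a nucleolar RNA of the box H/ACA type, and Snord21, of the box C/D type, with their box letters in capitals, ACA for the first type and TGATGA and CTGA for the other. Gm22422, another H/ACA RNA, was listed at 0 in both polyA libraries.

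Gm22988: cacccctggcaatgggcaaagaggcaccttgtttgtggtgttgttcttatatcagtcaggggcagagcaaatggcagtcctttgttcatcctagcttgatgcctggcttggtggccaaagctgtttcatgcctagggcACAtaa

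Snord21: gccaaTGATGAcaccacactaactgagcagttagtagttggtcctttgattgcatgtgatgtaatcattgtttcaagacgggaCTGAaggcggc

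Gm22422: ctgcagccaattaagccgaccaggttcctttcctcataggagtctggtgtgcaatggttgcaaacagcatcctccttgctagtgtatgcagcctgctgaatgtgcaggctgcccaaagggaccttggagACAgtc

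Gm22988 lies at chr11:69669635-69669778 (-) in an intron of Eif4a1, Snord21 at chr5:107904555-107904648 (+) in an intron of Rpl5, and Gm22422 at chr16:56035753-56035887 (-) in an intron of Trmt10c.

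Because each kit fills a table that was normalized separately, no significance test was made between them: kit, table and embryos cannot be told apart. FPKM values were rescaled to TPM, a share of all transcripts that has the same sum in every library, and a log2 ratio was taken between the mean log2(TPM + 1) of the polyA and of the total RNA libraries, less the median over all genes with a mean of at least 1 TPM (0.25). Positive ratios mean higher in polyA RNA relative to that median gene. A gene was counted as higher in a kit when both of its libraries lay beyond both of the other's after this centring and the ratio was at least 2, a 4-fold difference. Depth in reads is unknown, since the files hold FPKM only, and a value of 0 is a gene listed at 0. In bulk samples, fewer cells of a type and less RNA per cell cannot be told apart.

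The libraries carried the marks of their stage. Dppa4, a marker of the 2-cell embryo, stood at 322 and 283 TPM in the polyA libraries against 53.7 and 34.4 in the total RNA libraries, and at 7.53 to 16.6 TPM in the 4 B6 1-cell libraries. Between 13212 and 13387 genes reached 1 FPKM in the polyA libraries and 12080 to 12505 in the total RNA libraries. Across the 15755 genes with a mean of at least 1 TPM, log2 levels of the 2 polyA libraries correlated at r = 0.88 and those of the 2 total RNA libraries at 0.95, whereas pairs from different kits gave 0.57 to 0.61 (genes are not independent, and no p is given). Y-linked genes summed to 151 and 0.214 TPM in the polyA libraries and to 20.3 and 24.8 in the total RNA libraries, and Xist was at 0 and 5.82 against 0.753 and 0.243. The first polyA library thus held Y-linked transcripts and the second held Xist, while both total RNA libraries held Y-linked transcripts at intermediate levels.

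Of the 15755 genes, 2209 (14.0%) were higher in polyA RNA and 2589 (16.4%) in total RNA. The groups did not overlap in either direction for 11758 genes (74.6%), so most genes lack overlap whatever their class. Among 12322 protein-coding genes, 1440 (11.7%) were higher in polyA RNA and 2204 (17.9%) in total RNA. At the 4-fold limit, 7 genes past it in favour of polyA RNA and 3 in favour of total RNA were not counted because their libraries overlapped. The balance of the directions depends on the reference and the filter: 2746 and 2066 genes without centring, 2878 and 1977 when centred on protein-coding genes, 2305 and 1832 when TPM was taken over nuclear protein-coding genes, and 2771 and 2058 without the filter on low values. Genes are named below by a rule (the extremes and the most abundant members of each list), and other members named were chosen after their values were seen.

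The make-up of the libraries differed most in a handful of abundant RNAs. Nuclear protein-coding genes took 73.2% and 71.5% in the polyA libraries against 42.1% and 46.2% in the total RNA libraries. The 10 most abundant genes together took 14.1% and 15.0% of the polyA libraries and 42.9% and 39.6% of the total RNA libraries. In the polyA libraries these were mitochondrial messengers led by mt-Cytb, the maternal transcripts Omt2a, Omt2b and Dppa3, the mitochondrial ribosomal RNA mt-Rnr2 and the pseudogene Gm10925. In total RNA, mt-Rnr1 and mt-Rnr2, the 7SL RNA genes Rn7s1 and Rn7s2, Rn7sk and Gm23935 were the first 6 in the first library; in the second, mt-Cytb stood ahead of Rn7sk. Gm23935, annotated as a 57-base miRNA, stood at 1023 and 699 TPM in the polyA libraries against 103682 and 63089.8 in the total RNA libraries. It alone made up most of the miRNA share of total RNA, which was 11.9% and 7.73% against 0.472% and 0.451% in polyA RNA, although the 153 genes of that type had a median ratio of 0.12. FPKM divides by length, and so raises a very short gene model for a given number of reads.

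**Figure D1:**
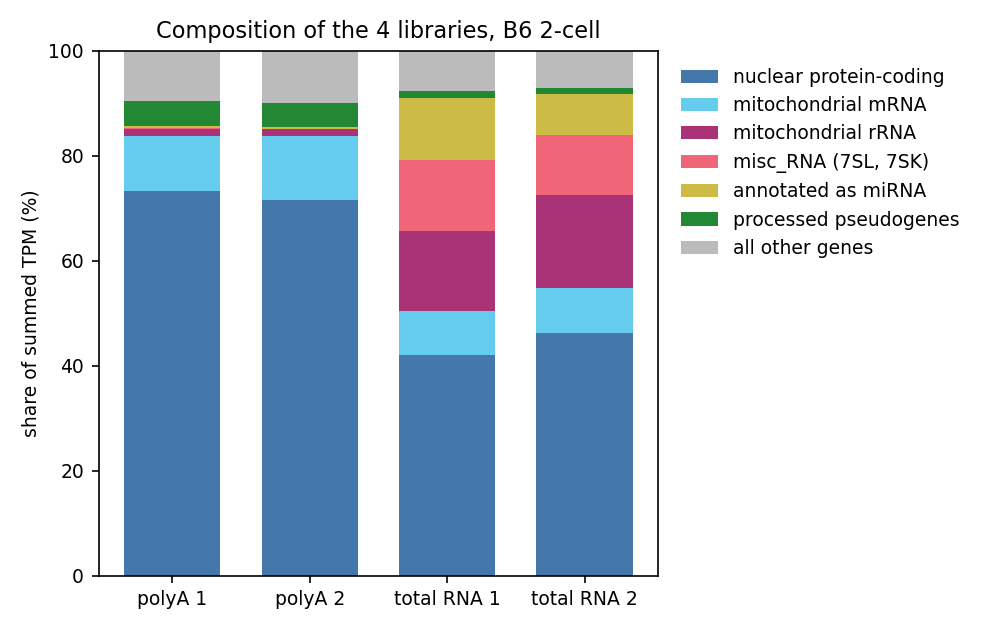
Share of summed TPM (%) taken by classes of genes in each of the 4 libraries, stacked to 100. Nuclear protein-coding genes fill 73.2% and 71.5% of the polyA bars and 42.1% and 46.2% of the total RNA bars, where ribosomal RNA of the mitochondrion, misc_RNA and miRNA annotations fill much of the rest.

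Replication-dependent histone messengers, made in S phase to package new DNA, were the protein-coding list most strongly weighted to total RNA. Of 65 genes 63 had a mean of at least 1 TPM; 52 were higher in total RNA and none in polyA RNA, and the median ratio was -3.78 ± 0.34 (SD of the class median, combining 2 libraries of each kit), against 0 over all genes and -0.29 over protein-coding genes. Together they summed to 395 and 424 TPM in the polyA libraries and to 7481 and 6150.3 in the total RNA libraries. Hist1h1a, a linker histone and the most abundant member, stood at 54.5 and 74.3 TPM in the polyA libraries against 2099 and 1835 in the total RNA libraries, a ratio of -5.17. Both total RNA libraries lay far above both polyA libraries. Hist2h2bb, an H2B gene, was listed at 0 in both polyA libraries and at 942 and 672 TPM in total RNA. Hist2h2aa2 was likewise listed at 0 against 514 and 576 TPM, while Hist2h2aa1 had 6.67 and 7.68 against 597 and 693; these 2 H2A genes are near-identical copies among which reads may be split. Among histones known from germ cells, Hist1h2ba had 0.0741 and 1.37 TPM against 103 and 108. Hist1h2aa had 1.13 and 1.98 TPM in polyA RNA against 130.0 and 164 in total RNA.

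All 5 histone families leaned the same way. The medians were -4.02 ± 0.26 for 5 H1 genes, -3.23 ± 0.71 for 18 H2A genes, -3.73 ± 0.35 for 15 H2B genes, -4.83 ± 0.71 for 12 H3 genes and -2.98 ± 0.36 for 13 H4 genes. Every passing H1 and H3 gene was counted as higher in total RNA. Within H2A the spread was wide: 11 of 18 were higher in total RNA. Hist1h2ao had 33.5 and 47.8 TPM in the polyA libraries against 16.6 and 9.18 in the total RNA libraries, a ratio of 1.37, and Hist1h2ap had 51.5 and 74.1 TPM in the polyA libraries against 25.99 and 16.97 in the total RNA libraries, a ratio of 1.27. These are the 2 histone genes of the 63 whose polyA libraries both lay above both total RNA libraries, by less than 4-fold; Hist1h2ao ends in the same 16-letter stem-loop as Hist2h2aa1. Histone gene models whose last 40 bases hold AATAAA or ATTAAA had a median of -2.91 ± 0.15 (15 genes), against -4.18 ± 0.36 for the 48 without. The groups also differed in level and length. Those with the signal summed to 409 and 288 TPM in total RNA, and those without to 7072 and 5862. Their median lengths were 1254 and 483.5 bases. The part of the signal in this gap was not tested. Models with the stem-loop pattern (-3.80 ± 0.38, 21 genes) and without it (-3.73 ± 0.37, 42 genes) did not differ beyond their spread. This split is of annotated models, and a model can end elsewhere than its messenger. Those of Hist2h2bb, Hist1h2ba and Hist1h2aa, without the pattern, are only 381, 384 and 390 bases long. Messengers with and without a stem-loop were therefore not compared.

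Histone messengers are short, and short messengers as a whole leaned to polyA RNA. Relative to protein-coding genes of like transcript length their median was -5.55, further from 0 than without the adjustment. Of the 63 genes, 21 overlap an exon on the other strand, where libraries without strand cannot tell the pair apart. Their median was -4.11, and 14 of them were higher in total RNA. Hist2h2bb lies wholly under the antisense gene Gm20628, which had only 2.57 and 2.77 TPM in the polyA libraries.

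**Figure D2:**
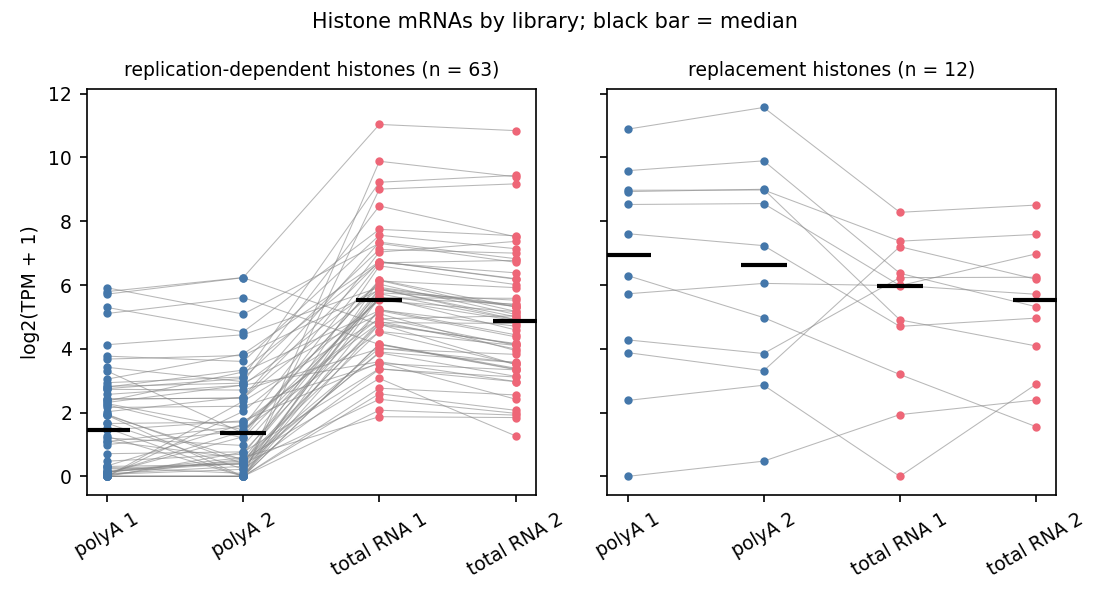
Levels, as log2(TPM + 1), of 63 replication-dependent and 12 replacement histone genes in the 4 libraries; each grey line is a gene and the black bar is the median. The replication-dependent genes are low in both polyA libraries and high in both total RNA libraries, while 6 of the 12 replacement histones are higher in the polyA libraries and 3 in the total RNA libraries.

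Replacement histones are made throughout the cell cycle from messengers that carry a tail, and their median lay on the other side. Of 15 genes 12 passed the filter; 6 were higher in polyA RNA and 3 in total RNA, with a median of 1.80 ± 0.41. H3f3b, which encodes the H3.3 variant, stood at 1893 and 3036 TPM in the polyA libraries against 309.9 and 363 in the total RNA libraries, a ratio of 2.59. H2afz had 768 and 951 TPM in the polyA libraries against 81.7 and 38.97 in the total RNA libraries, and H2afv 486 and 512 against 29.05 and 16.04 TPM, with ratios of 3.65 and 4.22. Both encode forms of H2A.Z, and both end at the signals shown above. Cenpa, the centromeric H3, had 368 and 375 TPM in the polyA libraries against 62.4 and 51.4 in the total RNA libraries. The 3 that were higher in total RNA were H2afx, H1f0 and H2afy. H2afx, whose messenger is known to exist with both kinds of end, had 13.7 and 8.94 TPM in the polyA libraries against 146 and 71.6 in the total RNA libraries, a ratio of -3.34. H1foo, the oocyte linker histone, did not separate, at 51.9 and 65.3 TPM against 62.2 and 125.

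Structural noncoding RNAs showed the widest gap of any list. Of 41 genes 30 passed, 28 of which were higher in total RNA, and the median was -5.46 ± 0.69. Rn7s1 and Rn7s2, near-identical genes for the 7SL RNA of the signal recognition particle, share the pattern. Rn7s1 had 107 and 66.6 TPM in polyA RNA against 49271 and 47229 in total RNA, and Rn7s2 101 and 69.4 against 44980.1 and 43623. Rpph1, the RNA of RNase P that trims transfer RNA precursors, had 4.79 and 4.66 TPM in the polyA libraries against 3752 and 3448 in the total RNA libraries, a ratio of -9.54. Rn7sk, the 7SK RNA that restrains the transcription elongation factor P-TEFb, had 52.3 and 48.3 TPM in the polyA libraries against 32665 and 18282 in the total RNA libraries. All 4 genes were present in polyA RNA at far lower levels than in total RNA. The U1 genes Rnu1a1 and Rnu1b1, the minor spliceosome RNAs Rnu11 and Rnu12, the Y RNA Rny3 and the RNase MRP RNA Rmrp were listed at 0 in at least 1 polyA library and at 23.2 to 91.6 TPM in total RNA. Terc, the telomerase RNA, was listed at 0 in both polyA libraries and at 8.88 and 9.21 TPM in total RNA. Scarna3a counts among the 28 only through the centring, with 0 in both polyA libraries and 62.9 and 0 TPM in total RNA. Vaultrc5, a vault RNA, stood at 96.9 and 49.4 TPM in the polyA libraries against 2576 and 1839.6 in the total RNA libraries.

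Nucleolar RNAs guide the modification of ribosomal RNA, and nearly all are cut from introns of other transcripts. Of 205 passing snoRNA genes 112 were higher in total RNA and 6 in polyA RNA, with a median of -2.32 ± 0.52. Some of the 112 count only through the centring, being listed at 0 in both polyA libraries and in 1 total RNA library. Examples are Snora36b, with 12.9 and 0 TPM in total RNA, and Gm22027, with 16.2 and 0. The size depends on the filter: the median was -0.48 without it and -3.83 for genes with a mean of at least 5 TPM. Those ending in an ACA box had a median of -2.93 ± 0.68 (90 genes). Those with C and D boxes had -1.68 ± 0.43 (53 genes), a difference larger than either spread. Their median lengths were 133 and 83 bases, and the part of length was not tested. In the m-z+Dppa4 and m-z+Dppa2 2-cell embryos described below the medians were -2.75 and -1.53, and -2.46 and -1.67. In B6 1-cell embryos the order turned, at -2.56 ± 0.57 and -2.70 ± 0.69. Boxes were searched as letters in the annotated RNA: ACA near the end, or TGATGA with CTGA. The related Cajal body RNAs, which modify spliceosomal RNAs, had 15 of 21 higher in total RNA and a median of -3.41 ± 0.61. Gm22988 stood at 0.145 and 0.581 TPM in the polyA libraries against 997 and 1000.1 in the total RNA libraries, and Gm22422 was listed at 0 in both polyA libraries against 620.3 and 338 TPM. Snord21 had 2.06 and 0.128 against 704 and 411 TPM.

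The genes that carry these RNAs in their introns did not share the pattern. For 187 snoRNA and scaRNA genes inside an intron of a passing gene, the median ratio was -2.80, with 115 higher in total RNA and 3 in polyA RNA. Their 135 hosts had a median of 0.26, with 17 higher in total RNA and 23 in polyA RNA. These counts are near the shares over all genes (16.4% and 14.0%), so nothing particular to hosts is read from them. Of the 187 small RNAs 160 had a lower ratio than their host. Eif4a1, a translation initiation helicase and the host of Gm22988, had 70.1 and 59.3 TPM in the polyA libraries against 151 and 161 in the total RNA libraries. Trmt10c, a mitochondrial tRNA methyltransferase and host of Gm22422, had 46.4 and 46.7 against 34.2 and 18.5 TPM, and Rpl5, host of Snord21, 143 and 92.7 against 68.9 and 43.4. In these 3 hosts the 4 libraries lay within 4-fold of each other, while the RNA from the intron differed by far more. Listed snoRNA host genes, not all of them annotated as noncoding, leaned to polyA RNA. Of 17 genes 9 (52.9%) were higher there, against 14.0% of all genes, and none in total RNA. Their median was 2.31 ± 0.64. Gas5 had 275 and 509 TPM in the polyA libraries against 40.3 and 28.1 in the total RNA libraries, and Snhg20, the highest ratio of the list at 5.01, had 324 and 142 against 8.65 and 2.28 TPM.

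The 1 structural gene higher in polyA RNA was Rn18s-rs5, and its partner on the other strand was its mirror image. Rn18s-rs5, annotated as ribosomal RNA at chr17:39846353-39848827 (-), stood at 1245 and 715 TPM in the polyA libraries against 0.0801 and 0.157 in the total RNA libraries. Yam1, a lincRNA gene on the opposite strand that shares 1822 bases of exon with it, had 2.86 and 1.68 TPM in the polyA libraries against 1408 and 1082 in the total RNA libraries. Added together, the pair had 1248 and 717 TPM in polyA RNA and 1408 and 1082 in total RNA, a far smaller difference than either gene alone. The gene with the highest protein-coding ratio had a partner of the same kind. Fam221b had 186 and 191 TPM in the polyA libraries against 0.856 and 1.17 in the total RNA libraries, and Gm12481, a processed pseudogene that overlaps 297 bases of it on the other strand, had 0 and 0.597 TPM in the polyA libraries against 79.9 and 64.1 in the total RNA libraries. Of 1333 pairs of passing genes that overlap on opposite strands, 55 had 1 gene higher in polyA RNA and the other higher in total RNA, against 35 with both higher in polyA RNA and 23 with both higher in total RNA. With 14.0% and 16.4% of all genes called, nothing is read from these counts about pairs as a whole. Without strand, reads of a gene and of its partner cannot be told apart, and whether the partner took the reads in each pair was not tested.

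Mitochondrial RNAs split by kind. The 2 ribosomal RNAs were both higher in total RNA: mt-Rnr1 stood at 3372 and 3861 TPM in the polyA libraries against 67552 and 91131 in the total RNA libraries, and mt-Rnr2 at 9630.3 and 9455 against 84696 and 85689.8. Their ratios were -4.69 and -3.40. In contrast, 12 of the 13 mitochondrial messengers were not counted in either direction, and their median was 0.13 ± 0.13. mt-Cytb, the most abundant, had 29091 and 30271 TPM in the polyA libraries against 17079 and 20998 in the total RNA libraries, and mt-Nd1 had 12665 and 16346 against 11614 and 9743 TPM. The exception was mt-Co3, a subunit of cytochrome c oxidase, with 6426 and 8511 TPM in the polyA libraries against 1528 and 1533 in the total RNA libraries and a ratio of 2.03. The lowest was mt-Nd4l, at 1043 and 1029 against 3256 and 3085 TPM (-1.86). Among 22 mitochondrial tRNA genes the median was -0.73 ± 0.19. mt-Tq had 2066 and 1844 TPM in the polyA libraries against 216 and 286 in the total RNA libraries, whereas mt-Tv, which lies between the 2 ribosomal RNA genes, had 204 and 110.2 against 1442 and 1716 TPM. On the other strand mt-Tq overlaps mt-Ti by 3 bases, and mt-Ti had 631 and 564 TPM in the polyA libraries. The polyA libraries cannot tell the strands apart, so the polyA value of mt-Tq is uncertain.

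Several lists of messengers for the basic machinery of the cell leaned to polyA RNA (respiratory chain, ribosomal proteins, proteasome and splicing), and others did not. Ribosome biogenesis genes had a median of 0.09 ± 0.49 (62 genes, 11 higher in polyA RNA and 4 in total RNA) and chaperones 0.20 ± 0.11 (70 genes, 10 and 7). The counts are 17.7% and 6.45% of ribosome biogenesis genes and 14.3% and 10% of chaperones, against 14.0% and 16.4% of all genes. Of 86 passing nuclear genes for respiratory subunits 61 were higher in polyA RNA and none in total RNA, with a median of 2.78 ± 0.13. Ndufb6, a complex I subunit, stood at 616 and 585 TPM in the polyA libraries against 19.6 and 15.4 in the total RNA libraries, a ratio of 4.79, and Cox8a of complex IV at 2359.9 and 2083 against 137 and 133 TPM. Atp5g1, a subunit of ATP synthase, had 1151 and 1231 TPM in the polyA libraries against 52.8 and 44.6 in the total RNA libraries. The lowest of the list was Sdha, the largest subunit of complex II, at 13.7 and 10.6 against 15.99 and 36.8 TPM.

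Protein synthesis genes differed by list. Cytoplasmic ribosomal proteins had 38 of 86 higher in polyA RNA and none in total RNA (median 1.86 ± 0.52), and mitochondrial ribosomal proteins 39 of 78 and 1 (median 1.99 ± 0.15). Rplp0, of the ribosomal stalk, had 2379 and 3080.2 TPM in the polyA libraries against 427 and 204 in the total RNA libraries, and Rps27l 2984 and 2942 against 178 and 199.7 TPM. Rpl39l, a paralogue of Rpl39, had the highest ratio at 4.88, with 403 and 309 TPM against 15.4 and 5.26. Rpl13a had the lowest, at 136 and 92.0 against 155 and 98.6 TPM. Many ribosomal protein genes have processed pseudogenes that can share their reads, so single values are uncertain. Mrps5 was the 1 mitochondrial member higher in total RNA, listed at 0 in both polyA libraries and at 4.99 and 3.06 TPM. Of 67 translation factors 9 were counted in each direction (13.4%, near the 14.0% and 16.4% of all genes): Eif1 had 1135 and 1095 TPM in the polyA libraries against 85.5 and 82.3 in the total RNA libraries, and Eef2k, the kinase of elongation factor 2, 15.1 and 7.44 against 219.7 and 422 TPM. Aminoacyl-tRNA synthetases had a median near 0 (0.24 ± 0.02, 21 genes, and 0.0891 to 0.212 over single library pairs).

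The proteasome and the spliceosome also leaned to polyA RNA, with exceptions. Of 44 proteasome genes 24 were higher in polyA RNA and none in total RNA (median 2.12 ± 0.44). Psmb2, a core particle subunit, had 582 and 486 TPM in the polyA libraries against 18.7 and 20.2 in the total RNA libraries, and the activator Psme3 97.8 and 86.5 against 235 and 313 TPM. Among 61 splicing genes 17 were higher in polyA RNA and 8 in total RNA (median 1.35 ± 0.16). Snrpg, an Sm ring protein, had 3898 and 3488 TPM in the polyA libraries against 121 and 134 in the total RNA libraries, a ratio of 4.60. Srsf4, a serine-arginine splicing factor, had 0 and 5.48 against 53.8 and 66.8 TPM, and Prpf8, at the catalytic centre, 8.05 and 3.47 against 33.4 and 30.2. Snrpe, another Sm protein, and Lsm8 also stood at the polyA end, with ratios of 3.37 and 4.04, and Sf1, a branch point binding protein, at the other (-3.70). Srsf4 shares 1532 bases of exon with Gm12992 on the other strand, which had 12.3 and 11.8 TPM in the polyA libraries. Sf1 shares 70 bases with Gm14966, which had 47.9 and 21.3 TPM there. The polyA values of Srsf4 and Sf1 are therefore uncertain.

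**Figure D3:**
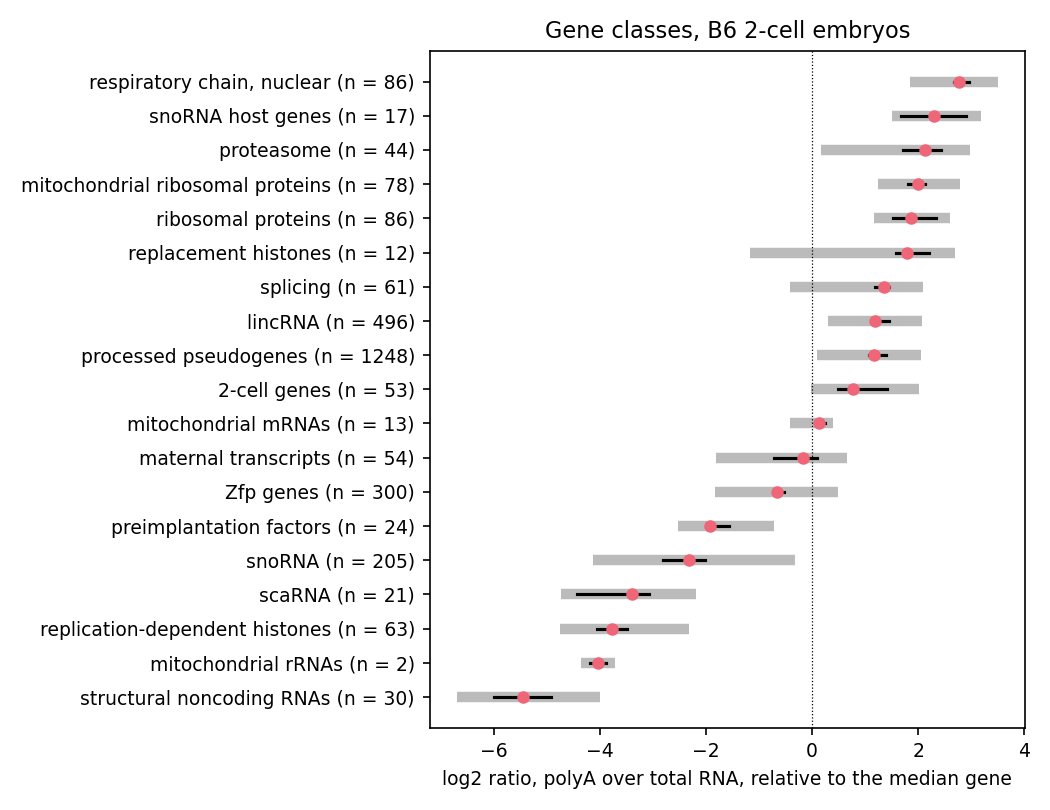
Median log2 ratio of each gene class, polyA over total RNA, relative to the median gene (red point), with its quartiles over genes (grey bar) and the range over the 4 pairs of a polyA and a total RNA library (black line). Structural noncoding RNAs sit at -5.46, replication-dependent histones at -3.78 and nuclear respiratory chain genes at 2.78.

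Transcript length ran through these classes. When 12274 nuclear protein-coding genes were divided into 5 groups of nearly equal size by annotated transcript length, the medians were, in order, 1.55, 0.30, -0.51, -1.04 and -1.56 from the shortest to the longest, each with an SD of at most 0.10 between libraries. The group of shortest transcripts held 902 genes higher in polyA RNA and 87 in total RNA, and the longest 43 and 913. Relative to genes of like length, the median of the ribosomal proteins moved from 1.86 to 0.26, that of the mitochondrial ribosomal proteins to 0.84, of the respiratory chain to 1.11 and of the proteasome to 0.97. The splicing list moved from 1.35 to 0.58. The adjusted value of the ribosomal proteins lay within their spread of 0, and in other embryos it was 0.04 (m-z+Dppa4), -0.56 (m-z+Dppa2) and -1.21 (B6 1-cell). Of 12309 nuclear protein-coding genes 1439 were higher in polyA RNA and 2204 in total RNA, and after the adjustment, possible for 12274 of them, 1107 and 1011 were. By GC content the medians ran from 0.11 in the group with the least GC to -0.87 in the group with the most. Relative to genes of like length these 2 groups had 0.68 and -0.77, further apart. A polyadenylation signal in the last 40 bases went with a small difference in the median: -0.32 with it (9386 genes) and -0.16 without (2923 genes). Relative to genes of like length the medians were 0.0039 with the signal and -0.015 without, so this difference did not remain. Transcripts holding a run of 12 or more A had a median of -0.78 (1236 genes), and 0.29 relative to genes of like length. The part of length in any single class was not tested beyond this adjustment.

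**Figure D4:**
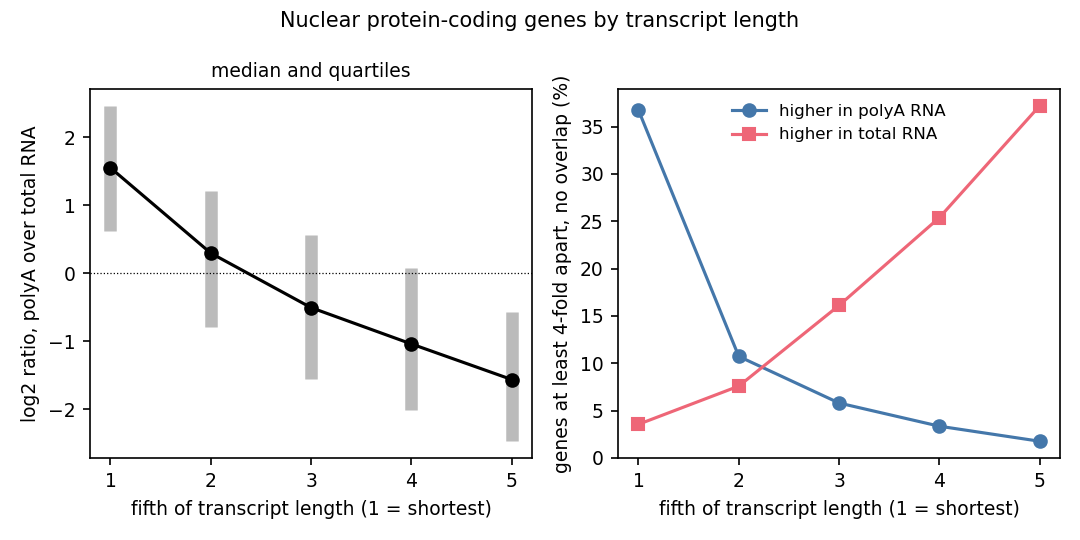
Nuclear protein-coding genes in 5 groups by transcript length (x axis, 1 = shortest). Left, median log2 ratio with quartiles over genes; right, percent of genes at least 4-fold higher in each kit without overlap, which runs from 36.7% to 1.75% for polyA RNA and from 3.54% to 37.2% for total RNA.

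Single protein-coding genes at the extremes had other features. After Fam221b the highest ratios belonged to Lage3, Ly96, Gm21915, Nop10, Esp24, Cox14 and Nif3l1, between 5.68 and 4.97. Lage3, a subunit of the KEOPS complex that modifies transfer RNA, stood at 246 and 419.8 TPM in the polyA libraries against 4.48 and 4.12 in the total RNA libraries. Nop10, which encodes a small protein of H/ACA particles, had 668 and 657 TPM in the polyA libraries against 19.2 and 12.1 in the total RNA libraries. Its ratio of 5.11 was 3.28 relative to genes of like length. The messenger thus lay on the polyA side, and the median of the H/ACA RNAs on the total RNA side. Cox14, an assembly factor of cytochrome c oxidase, had 201 and 192 TPM in the polyA libraries against 5.58 and 3.15 in the total RNA libraries. Nif3l1 shares 1486 bases of exon with genes on the other strand. At the other end, the lowest 8 held 5 histone genes and Kmt2d, Zfp385a and Mark4. Kmt2d, a histone H3 lysine methyltransferase with 55 exons and a 19823-base transcript, had 2.59 and 1.98 TPM in the polyA libraries against 178 and 204 in the total RNA libraries, and its ratio of -6.12 was -4.33 relative to genes of like length. Mark4, a microtubule-affinity kinase, had 0.910 and 0.210 against 67.1 and 74.98 TPM. These genes were picked among those whose libraries did not overlap between kits, so their lack of overlap adds no support. Of all genes, 74.6% lacked overlap.

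Noncoding genes outside the small RNA types had positive medians, but their models are short, and the shortest protein-coding group had a higher one (1.55). The medians were 1.19 ± 0.21 for 496 lincRNA genes (130 higher in polyA RNA and 18 in total RNA), 1.08 ± 0.17 for 368 antisense genes (95 and 12) and 1.17 ± 0.14 for 1248 processed pseudogenes (331 and 64). The shares were 26.2% and 3.63% of lincRNA genes, 25.8% and 3.26% of antisense genes and 26.5% and 5.13% of pseudogenes. Over all genes they were 14.0% and 16.4%. Antisense genes lie opposite other genes, and the polyA libraries carry no strand information, so the polyA values of this type are uncertain. 4930562F17Rik, F730035P03Rik and Gm26819 were listed at 0 in both total RNA libraries. In polyA RNA 4930562F17Rik had 61.1 and 83.3 TPM, F730035P03Rik 51.9 and 53.6 and Gm26819 52.2 and 41.6. Gm26819 shares 4168 bases of exon with Med10 on the other strand, a Mediator subunit with 729 and 669 TPM in the polyA libraries against 127 and 114 in the total RNA libraries, so its polyA value is uncertain. Gm15564 and Gm11508 had the highest ratios of the antisense genes with a mean of at least 5 TPM. Gm15564 had 90.7 and 72.2 TPM against 0.445 and 0, and Gm11508 62.6 and 78.8 against 0 and 0.984. Gm11508 shares 98 bases of exon with Srsf1 on the other strand, which had 31.2 and 29.7 TPM in the polyA libraries. Among 12 passing regulatory RNAs of a named list 2 were higher in polyA RNA (16.7%, near the 14.0% of all genes) and none in total RNA: Malat1 had 8.82 and 24.1 TPM in the polyA libraries against 19.6 and 20.7 in the total RNA libraries, and Dleu2 29.1 and 33.05 against 0.787 and 4.61 TPM.

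Maternal transcripts of the oocyte did not move together. Of 54 genes of the subcortical complex, the zona and other oocyte functions, 6 (11.1%) were higher in polyA RNA and 13 (24.1%) in total RNA. The shares over all genes were 14.0% and 16.4%. Their median was -0.17 ± 0.51, while their summed TPM was 65518 and 63195 in polyA RNA and 14291 and 22248 in total RNA. The sum was carried by a few very abundant genes. Omt2b and Omt2a, oocyte maturation genes, stood at 18541 and 17864 TPM in the polyA libraries against 496 and 544 in the total RNA libraries and at 12809.7 and 13734 against 716 and 807. Dppa3, which protects the maternal genome from loss of methylation, had 11404 and 10106 TPM in the polyA libraries against 1471 and 1556 in the total RNA libraries, a ratio of 2.58. On the other side stood Lsm14b, a component of stored messenger particles, with 7.95 and 8.08 TPM in the polyA libraries against 296 and 436 in the total RNA libraries and a ratio of -5.56. Dnmt1, the maintenance methyltransferase, had 9.37 and 4.89 against 65.99 and 74.1 TPM, its partner Uhrf1 11.7 and 8.19 against 80.4 and 156, and Zar1, an RNA-binding organizer of oocyte storage, 8.30 and 10.7 against 37.8 and 67.1. Zbed3, of the subcortical complex, was abundant and higher in total RNA, at 1187 and 1165 against 4129.5 and 6749.5 TPM. Zp1, Zp2 and Zp3, of the zona pellucida, had ratios of 0.05, -0.45 and 1.85 and were not counted.

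Messengers known to gain tails when the oocyte matures were mixed. Of 17 such genes 1 (5.88%) was higher in polyA RNA and 4 (23.5%) in total RNA, against 14.0% and 16.4% of all genes. The median was -0.27 ± 0.60, within its spread of 0. Btg4, an adaptor for removal of tails, stood at 3293 and 3729.9 TPM in the polyA libraries against 2068 and 3618 in the total RNA libraries, with overlapping libraries. Orc6, of the origin recognition complex, had 1058 and 1045 TPM in the polyA libraries against 151 and 151 in the total RNA libraries. The 4 higher in total RNA were Fbxo43, Dcp1a, Cnot6l and Plat; Cnot6l, a deadenylase, had 51.1 and 43.4 against 227 and 305 TPM, and Plat, tissue plasminogen activator, 8.98 and 9.42 against 31.8 and 42.5. Ccnb1, cyclin B1, had 861 and 848 against 153 and 216 TPM and a ratio of 1.98. In the machinery itself, 4 of 25 genes for tail synthesis and tail binding were higher in each kit (16%, near the 14.0% and 16.4% of all genes). Pabpn1, the nuclear tail-binding protein, had 2778 and 2986 TPM in the polyA libraries against 504 and 499 in the total RNA libraries, while the oocyte form Pabpc1l had 0.810 and 5.39 against 25.3 and 71.9 and the noncanonical polymerase Papd7 44.1 and 33.3 against 392 and 489 TPM. Slbp, which binds the histone stem-loop, had 262 and 398 against 219 and 281 TPM and did not separate.

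Genes switched on at the 2-cell stage leaned to polyA RNA, with wide variation. Of 53 passing genes of 56, 15 (against 14.0% of all genes) were higher in polyA RNA and 3 in total RNA, with a median of 0.77 ± 0.51. The median was 0.23 relative to genes of like length and 0.48 without the second polyA library. Summed, they had 8166 and 9461 TPM in polyA RNA and 2686 and 3338 in total RNA. Obox6, an oocyte-type homeobox gene, stood at 1153 and 1048 TPM in the polyA libraries against 162 and 116 in the total RNA libraries, a ratio of 2.75, and Trim43b at 948 and 769.9 against 137 and 104 TPM. Dppa4 itself, at chr16:48283733-48294237 on the + strand, had a ratio of 2.54, or 5.81-fold, while its neighbour and partner Dppa2 did not separate: 197 and 107 TPM in the polyA libraries against 88.4 and 96.8 in the total RNA libraries. Both encode SAP-domain chromatin proteins that act together. Zscan4c, Zscan4d and Zscan4f had ratios of 0.18, 2.49 and 0.77, and Usp17lb and Usp17ld 2.16 and -1.38; members of these families are near-identical, so differences between copies are uncertain. Zfp352, a zinc finger gene, had 209 and 329 against 122 and 166 TPM. The 3 higher in total RNA were Tdpoz3, Tdpoz4 and AU015836, the last at 26.3 and 42.6 against 87.1 and 188.

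Transcription factors of the later preimplantation embryo stood on the total RNA side. Of 24 passing genes of 26, 11 were higher in total RNA (against 16.4% of all genes) and none in polyA RNA, with a median of -1.92 ± 0.19, and -1.13 relative to genes of like length. Pou5f1, the Oct4 gene, had 8.88 and 12.7 TPM in the polyA libraries against 173 and 228 in the total RNA libraries, a ratio of -4.35. Yap1, the Hippo pathway coactivator, had 44.4 and 49.4 TPM in the polyA libraries against 594 and 561 in the total RNA libraries. Klf17 had 117 and 127 against 380.1 and 434 TPM and just missed the 4-fold limit at -1.98. Klf4, Klf5 and Sall4 were past it. Klf4 had 26.8 and 17.5 TPM against 98.4 and 95.3, Klf5 21.1 and 28.8 against 82.4 and 89.3, and Sall4 38.5 and 14.4 against 97.4 and 74.3. Gata3 had the highest ratio of the list, 0.75, with 5.50 and 2.13 against 0.919 and 1.68 TPM. Nanog and Prdm14 were below 1 TPM on average. Zinc finger genes of the Zfp series had 62 of 300 (20.7%) higher in total RNA and 10 (3.33%) in polyA RNA, against 16.4% and 14.0% of all genes. Their median was -0.66 ± 0.09, and relative to genes of like length the sign turned, at 0.06. Zfp706 had 611 and 475 TPM in polyA RNA against 118 and 127 in total RNA, Zfp639 279.8 and 254 against 35.7 and 6.81, and Zfp385a 0.479 and 0 against 53.5 and 63.2. Of 20 imprinted genes 3 were higher in polyA RNA and 4 in total RNA, shares near those of all genes (14.0% and 16.4%). Their median was -1.52 ± 0.05 (-1.45 to -1.36 over single library pairs), with 15 of 20 below 0, and -0.19 relative to genes of like length. Phlda2, a placental growth regulator, had 420.3 and 643 TPM in the polyA libraries against 38.6 and 34.7 in the total RNA libraries, and Igf2r 1.13 and 0.848 against 24.6 and 11.6 TPM.

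Some markers of other cells passed the filter, as did 15755 of all 46078 genes. Of 15 cumulus and granulosa markers 2 passed the filter (Tnfaip6 and Amhr2), with summed levels of 38.8 to 47.8 TPM in the polyA and 14.3 to 18.7 TPM in the total RNA libraries. Blood markers gave 4 of 9 passing and sums of 123 and 228 against 19.4 and 12.5 TPM, with Cd74 the highest and the haemoglobin gene Hba-a1 at 33.4 and 70.7 against 2.88 and 2.07 TPM. Sperm transcripts gave 4 of 10 passing and sums of 53.2 and 79.7 against 9.44 and 11.2 TPM. Of 10 oviduct markers 2 passed, Epcam at 263 and 191 against 94.9 and 71.6 TPM and Ovgp1. The haemoglobin messengers were thus present in both polyA libraries, and their part in other results was not tested.

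Other embryos of the series, which share no library with the comparison above, gave medians of the same sign for histones, structural noncoding RNAs and respiratory chain genes. These were m-z+Dppa4 embryos (B6, without the maternal and with the zygotic copy, 3 polyA and 2 total RNA libraries), m-z+Dppa2 embryos (B6/DBA mixed background, 3 and 2 libraries) and unmutated B6 1-cell embryos at 12 hours (2 and 2 libraries). In m-z+Dppa4 embryos 12.8% of genes were higher in polyA RNA and 14.8% in total RNA, and 1426 and 1786 genes were shared with the unmutated 2-cell embryos (64.6% and 69.0% of theirs, 72.5% and 78.2% of the other list). In m-z+Dppa2 embryos, where 10.6% and 14.4% were called, 1146 and 1636 were shared (51.9% and 63.2%, 66.8% and 70.6%). In 1-cell embryos, where 11.5% and 10.6% were called, 725 and 1085 were shared (32.8% and 41.9%, 47.5% and 76.7%). Opposite calls were made for 1 and 3 genes in m-z+Dppa4 and for 0 and 2 genes in m-z+Dppa2 embryos. Histones stood at -3.78 ± 0.34, -3.89 ± 0.31 and -4.61 ± 0.55 in the unmutated, m-z+Dppa4 and m-z+Dppa2 2-cell embryos. Ribosomal proteins varied more, at 1.86 ± 0.52, 1.41 ± 0.15 and 0.76 ± 0.21. At the 1-cell stage the histone median was -1.80 ± 0.22 and that of the ribosomal proteins 0.02 ± 0.35. Differences between the sets of embryos were not tested.

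**Figure D5:**
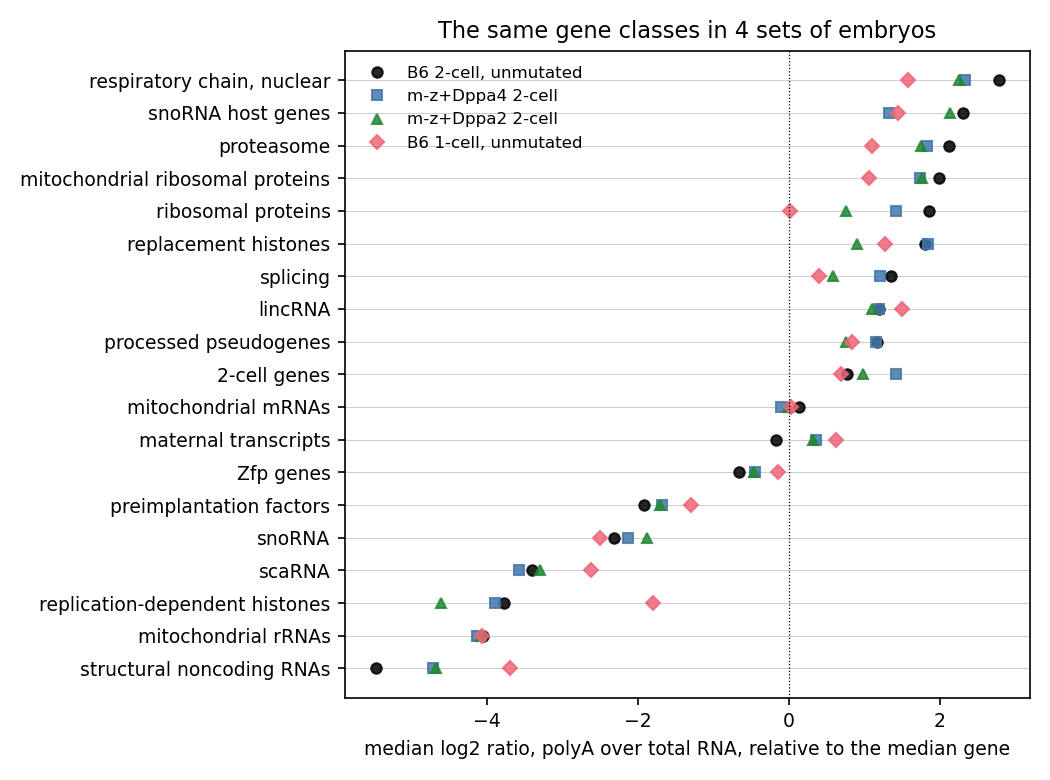
Median log2 ratio, polyA over total RNA, relative to the median gene, for the same classes in 4 sets of embryos. Small structural RNAs and histones are below 0 and respiratory chain genes above 0 in all 4 sets; ribosomal proteins range from 0.02 in 1-cell embryos to 1.86 in unmutated 2-cell embryos.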

How the data were processed

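RNA-seq of late 2-cell B6 embryos was compared between 2 polyA and 2 total RNA libraries. The deposited values are FPKM per gene, in 1 table per kit; reads were aligned with HISAT2 2.1.0 and quantified with StringTie 1.3.3b on mm10, per the submitters' processing notes. The sources used here name neither the annotation nor a strand option. FPKM was rescaled to TPM in each library. Genes with a mean of at least 1 TPM were kept, and log2(TPM + 1) ratios were centred on their median. No significance test was made between the tables. Gene types, lengths and sequences came from GENCODE M21 (mm10), which held 45229 of the 46078 identifiers (98.2%). Length-adjusted ratios subtract the median of protein-coding genes in 20 bins of transcript length. The SD of a class median combines its spread over the 2 libraries of each kit. Each library was set against the mean of the other kit, so medians of single library pairs can lie outside it. Members and lists were chosen with earlier results of these data known. Named genes were Dppa4 and Dppa2, the 8 protein-coding and 6 noncoding genes with the highest and lowest ratios among those with a mean of at least 5 TPM and no overlap, and in each list the highest and lowest ratio and the 2 highest levels; others were chosen after their values were seen. Alternatives covered the pseudocount, filter, centring, single libraries, ranks, other embryos and, added after seeing the data, length and opposite-strand overlap. The scripts were tested on simulated data. Python 3.11.15, pandas 2.3.3, numpy 2.4.6 and matplotlib 3.10.9 were used.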

Additional observations from a re-analysis of the deposited data

Results flagged for a closer look

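In 3 cases the class median lay above 0 in every pair of a polyA and a total RNA library of one set of embryos and below 0 in every pair of another; the difference was not tested. Aminoacyl-tRNA synthetases (21 genes) had a median log2 ratio of 0.235 in unmutated B6 2-cell embryos, with 0.0891 to 0.212 over library pairs. In m-z+Dppa2 2-cell embryos the median was -0.353 (-0.648 to -0.146 over pairs), and in B6 1-cell embryos -0.616 (-0.727 to -0.511). The 17 messengers that gain tails at oocyte maturation had -0.271 in B6 2-cell embryos (-0.873 to -0.0076 over pairs) and 0.490 in B6 1-cell embryos (0.211 to 0.408). Each set was centred on its own median gene, at 0.246 (B6 2-cell), 0.409 (m-z+Dppa2) and -0.350 (B6 1-cell). The signs depend on these centres. Relative to genes of like length the synthetases had 0.596, 0.121 and -0.533 in these sets, so the sign did not turn in m-z+Dppa2 embryos. By that measure the 17 messengers had -0.359 in B6 2-cell and 0.737 in B6 1-cell embryos.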

How the results depend on the processing

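Depth is unknown for FPKM, and with 2 libraries per kit, in tables normalized separately, kit, table and embryos cannot be told apart. No paired analysis was possible because the comparison rests on no test and the libraries of the 2 kits are different embryos. Leaving out a library in turn gave 2092 to 2470 genes higher in polyA RNA and 2500 to 2997 in total RNA; a pseudocount of 0.1 gave 3198 and 3410, and no filter 2771 and 2058. Adjusting for length, chosen after seeing the data and possible only for 12274 nuclear protein-coding genes, gave 1107 and 1011, against 1439 and 2204 for that type unadjusted. Ranks give differences in percentile points and not log2 units. The cause of the following differences was not tested. The snoRNA median became -3.85 with a pseudocount of 0.1, -0.48 without the filter, -3.83 with a minimum of 5 TPM and -28.7 by rank. Replication-dependent histones had -5.16 with the smaller pseudocount, -4.61 in m-z+Dppa2 embryos, -5.55 adjusted for length and -50.2 by rank. Ribosomal proteins had 0.76 in m-z+Dppa2 embryos, 0.26 adjusted for length and 9.28 by rank. Respiratory chain genes had 3.11 with the smaller pseudocount, 3.03 without the filter, 3.02 without centring, 3.07 centred on protein-coding genes, 3.29 with TPM over protein-coding genes, 2.33 and 2.24 in m-z+Dppa4 and m-z+Dppa2 embryos, 1.11 adjusted for length and 29.7 by rank. Structural noncoding RNAs had -7.97 with the smaller pseudocount, -4.43 without the filter, -4.71 and -4.67 in the m-z+Dppa4 and m-z+Dppa2 embryos and -65.0 by rank. The 2-cell genes had 1.41 in m-z+Dppa4 embryos, 0.23 adjusted for length and 5.91 by rank. Signs turned for sense_intronic genes (-0.0439 without the filter); miRNA (-0.0680 without the filter, -0.584, without the second polyA library, to 0.0902 with a library left out, -0.19 and -0.45 in m-z+Dppa4 and m-z+Dppa2 embryos); mitochondrial mRNAs (-0.131, without the second polyA library, to 0.192 with a library left out, -0.0991 and -0.00733 in those embryos); tRNA synthetases (-0.35 in m-z+Dppa2 embryos); Zfp genes (0.0573 for length); oocyte-maturation messengers (0.0219 centred on protein-coding genes, 0.00361 with TPM over them, -0.681 to 0.0772 with a library left out, the last without the second total RNA library); histone 3′ processing genes (0.34 for length); polyadenylation genes (0.20 for length, 0.0726 without opposite-strand overlap) and cumulus markers (-0.18 without the filter, -0.10 with TPM over protein-coding genes, -0.0277 in m-z+Dppa4 embryos). Of 1688 values for 128 named genes 1557 kept their direction and side of the limit.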
